A study of Homo sapiens with 18 samples.

Results

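The 41 genes described here take part in the passage from G1 into S phase, in copying the DNA, or in steps tied to these. They were chosen by name and fall into 5 roles: 12 cyclins, cyclin-dependent kinases, E2F factors and CDC25A, 11 genes of origin licensing, 11 of origin firing and the replication fork, 4 of nucleotide synthesis, and 3 of S-phase chromatin and repair (UHRF1, SLBP, BRIP1). They are 41 of the 35579 genes with a matched transcript. Of these 41, 40 passed the filter on low counts, as did 13527 genes in all, and CCND2 did not. Poly(A) RNA was sequenced from hiF-T, a fibroblast-like human cell line. It was made from BJ, a line of skin fibroblasts, has inducible hTERT (the catalytic part of telomerase) and is labelled wild type in every group. Control libraries carry a control guide (titled backbone; guides 1 and 2), and the knockdown libraries a CRISPR guide against CDKN1A (guides 1 and 2), KDM1A (guides 2 and 3) or SPP1 (guides 1, 2 and 3). With biological replicates 1 and 2 for each of the 9 guides, there were 4, 4, 4 and 6 libraries. The sources used here do not give how the guides lower the mRNA, whether hTERT was induced, or whether replicates are separate cultures or transductions. P-values therefore measure only the spread between these libraries, which may be technical. Tests between groups also count the 2 libraries of a guide as independent, though they share the guide. Where guides differ more than the libraries of a guide do, these p-values are too small.

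As background, cyclin D with CDK4 or CDK6, and then cyclin E with CDK2, phosphorylate the retinoblastoma protein and so free E2F factors, which switch on many of the other genes listed. In G1, ORC, CDC6 and CDT1 load the MCM helicase onto origins. CDC45 and the GINS complex then turn it into a moving helicase, and polymerases, PCNA and its loader RFC copy the DNA with nucleotides supplied through RRM1, RRM2, TYMS and TK1. CDKN1A encodes an inhibitor of cyclin-CDK complexes, KDM1A a histone demethylase, and SPP1 the secreted protein osteopontin.

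Total estimated counts per library ranged from 11907197 to 17016094. Each targeted mRNA was lower in its own knockdown: CDKN1A stood at 58.3% of the control mean (exact permutation test, two-sided, p = 0.0286, the smallest that 4 against 4 libraries allow), KDM1A at 53.0% (exact p = 0.0286) and SPP1 at 61.5% (exact p = 0.0429; 0.0190 with a doubled tail). In edgeR's fit SPP1 missed the threshold (log2 fold change -0.70, adjusted p = 0.0695). SPP1 ranged from 21.7 to 63.0 CPM (counts relative to the library's total, scaled by TMM) in its knockdown and from 55.2 to 72.7 CPM in control, so the groups overlapped. In the other knockdowns CDKN1A mRNA stood at 79.5% of the control mean in KDM1A and 80.3% in SPP1 knockdown, and neither difference passed (edgeR adjusted p = 0.112 and 0.116). SPP1 mRNA stood at 181% in CDKN1A and 204% in KDM1A knockdown, where each library lay above every control library. The labels' fibroblast identity was checked on 10 markers, of which 9 passed the filter. COL1A1 was at 3287 to 5629 CPM and VIM at 6108 to 7054 CPM. S100A4, PDGFRA and COL3A1 were much lower, at 2.34 to 8.43, 3.13 to 14.3 and 5.74 to 70.2 CPM, and THY1 was at 0 to 0.454 CPM. Of other skin and blood cell types, KRT1, AIF1 and HBB were at 0 in every library and KRT5, CDH5, TYR and CD3E stayed under 1 CPM. KRT10, TEK and CD68 were detected at 49.3 to 67.8, 52.4 to 91.8 and 49.6 to 72.4 CPM, and KRT15 at 2.59 to 9.99 CPM.

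E2F factors bind short GC-rich words, so the promoters of the members were searched for TTTGGCGC, TTTCGCGC, TTTCCCGC and TTTGCCGC on both strands. The promoters are RefSeq's, build GRCh38.p14, from 250 bases before to 50 bases after each start site. Of the 41 members 35 are in that table, with 49 promoters, and 19 of the 35 hold at least 1 such word. By promoter the share was 40.8%, against 3.31% of all 35116 promoters. The words were picked after hit counts of several candidates in these promoters had been seen, so the comparison is a description. The CCAAT box (CCAAT, both strands) stood in 61.2% of member promoters and 34.6% of all. The word TTTGAA (CHR), searched in the same way, went the other way, with 6.12% of member promoters and 15.2% of all. CCND1, CCND2, CCNE2, CDK2, MCM4 and MCM5 have no entry. The 30 bases around the word nearest to the start site follow, 5′ to 3′ with the word in capitals, for members whose values are given at length below (CDC25A, chr3:48188443-48188472, minus strand; CDC6, chr17:40287875-40287904, plus strand; CDT1, chr16:88803743-88803772, plus strand; TYMS, chr18:657603-657632, plus strand; E2F1, chr20:33686387-33686416, minus strand; E2F2, chr1:23531257-23531286, minus strand).
CDC25A: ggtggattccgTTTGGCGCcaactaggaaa
CDC6: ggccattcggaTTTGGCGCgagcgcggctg
CDT1: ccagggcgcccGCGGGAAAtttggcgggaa
TYMS: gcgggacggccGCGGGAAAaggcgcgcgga
E2F1: ggcaaaaaggaTTTGGCGCgtaaaagtggc
E2F2: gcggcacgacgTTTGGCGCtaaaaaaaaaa
In CDC25A, CDC6, E2F1 and E2F2 the word is TTTGGCGC, and in CDT1 and TYMS it is GCGGGAAA, the reverse complement of TTTCCCGC. In CDC6 the word begins 7 bases after the start site, and in CDC25A it begins 44 bases before it. The promoter windows of CDK6, CDC45, ORC6, CCND3, BRIP1 and MCM10 hold none of the 4 words. The 100 bases before the CDK6 start site (chr7:92833960-92834059, minus strand) show the contrast, since CDK6 changed most in SPP1 knockdown.
CDK6: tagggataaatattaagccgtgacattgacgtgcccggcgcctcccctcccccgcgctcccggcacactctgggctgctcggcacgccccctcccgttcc
No letter in it is a capital, which says only that these words are not in this window.

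In control libraries the members spanned a wide range of level per transcript length (TPM, the authors' values summed per gene, mean ± SD, n = 4). CCND1, which encodes cyclin D1, was highest at 1499 ± 121 TPM. PCNA, the sliding clamp, followed at 242 ± 13.4 TPM, and its range overlapped that of RRM2, the small subunit of ribonucleotide reductase (207 ± 27.8 TPM). TK1 and TYMS, which make thymidine nucleotides, stood at 200.4 ± 10.3 TPM and 190.3 ± 8.0 TPM, and CDK4 at 177 ± 13.8 TPM. From PCNA down to CDK4, each range overlapped the next. CDK6 lay far lower, at 40.9 ± 5.61 TPM. The low end was held by CCNE1, cyclin E1, at 6.63 ± 1.38 TPM and by E2F2 at 1.28 ± 0.338 TPM. CCND2, cyclin D2, had 0 to 12.1 counts in any library and 0 to 0.758 CPM, too few for a comparison. Of the D-type cyclins CCND1 had by far the most mRNA, with CCND3 at 65.4 ± 2.48 TPM.

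**Figure D1:**
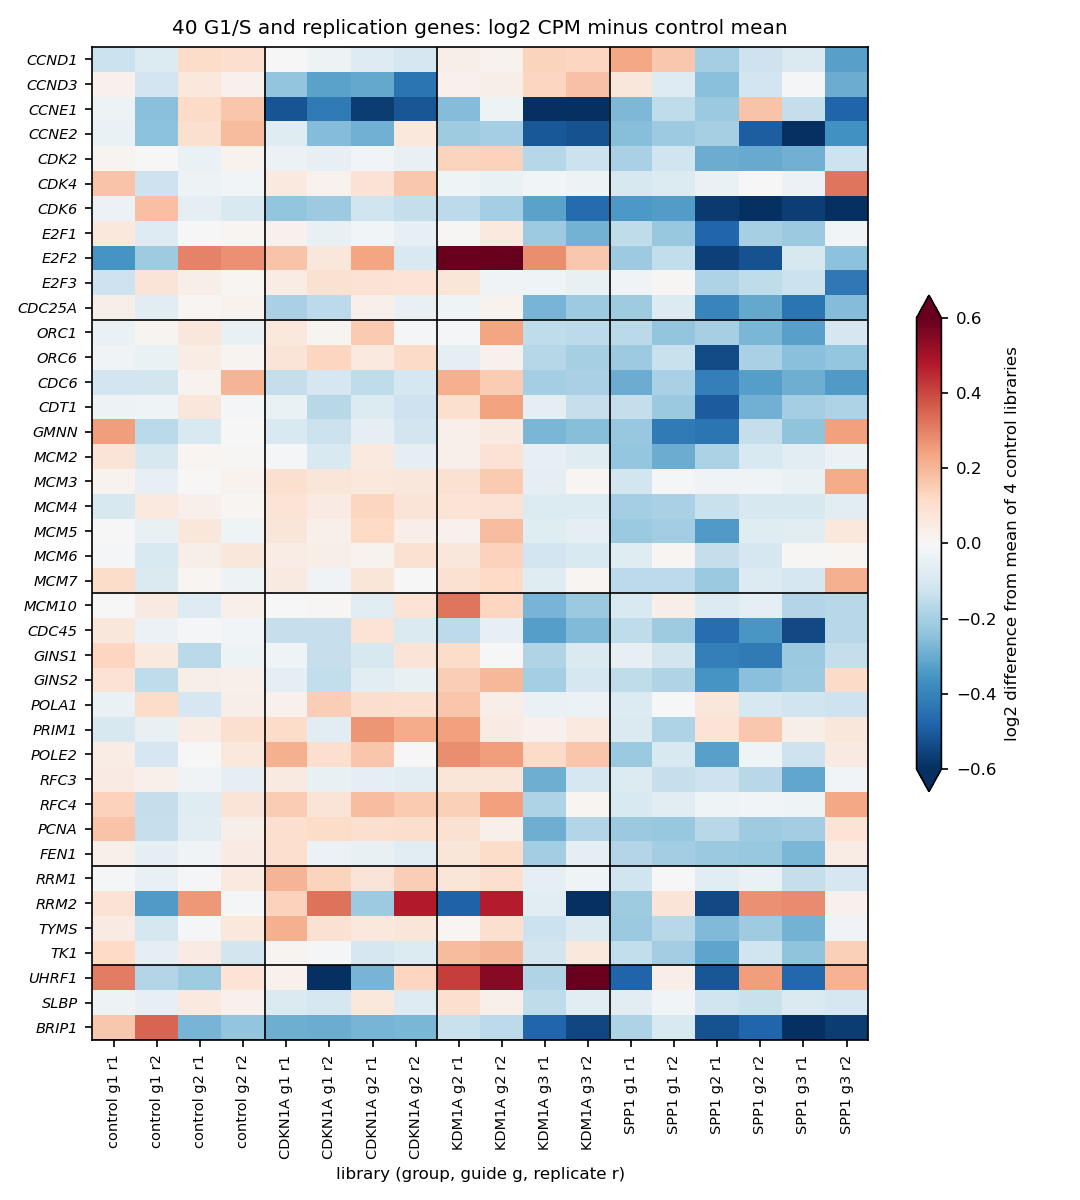
Each row is 1 of 40 members, grouped by role from cyclins at the top to chromatin and repair at the bottom, and each column 1 of 18 libraries; colour is log2 CPM (prior count 2) minus the mean of the 4 control libraries, with the scale ending at 0.6 in both directions. The 6 SPP1 columns are mostly blue, the KDM1A guide 2 columns mostly red and the guide 3 columns mostly blue.

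SPP1 knockdown lowered 8 of the 40 members and raised none. The 8 were CDK6, CDK2 and CDC25A among the cell cycle engines, ORC6, CDC6 and CDT1 among licensing genes, CDC45 of the helicase, and TYMS of nucleotide synthesis, with falls of 0.20 to 0.55 on the log2 scale (edgeR's quasi-likelihood F test, Benjamini-Hochberg adjusted p under 0.05 over 13527 genes). Over all genes, 3.06% were called lower and 2.40% higher, against 20% and 0% of members. The members' median log2 fold change was -0.15, beside 0.00426 over all genes, and 36 of 40 were below 0. Read without a model, 8 members lay below the lowest control library in all 6 SPP1 libraries and none above the highest, as did 3.37% and 2.96% of all genes; these 8 are the called members with ORC1 in the place of TYMS. In bulk RNA, fewer cells in S phase and less of these mRNAs per cell cannot be told apart. The count rests on few libraries: it was 0 without control guide 1, 1 without SPP1 guide 2, 0 after the replicates of each guide were summed, and 3 with an offset for transcript length. Leaving out 1 library, it was 1 without control guide 1 replicate 2, 2 without control guide 2 replicate 1 or SPP1 guide 2 replicate 2, 3 without control guide 1 replicate 1 or control guide 2 replicate 2 or SPP1 guide 2 replicate 1, 4 without SPP1 guide 3 replicate 1, 5 without either library of CDKN1A guide 2, while the members' median stayed between -0.13 and -0.20 under every alternative.

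CDK6, a kinase that works with D-type cyclins (chr7:92604921-92836594, minus strand, GRCh38), changed most. It stood at 222, 258, 219 and 213 CPM in the control libraries and at 122 to 180.2 CPM (median 153, n = 6) in SPP1 knockdown, and the groups did not overlap. The log2 fold change was -0.55 ± 0.0876 (SE), adjusted p = 0.00288 (edgeR), and it kept its call in each of the 18 fits that left out 1 library. It lost the call without control guide 1 (log2 fold change -0.47, edgeR adjusted p = 0.0732) and with guides summed. CDK2, the partner of cyclin E, had 79.7, 78.9, 76.7 and 79.8 CPM in control and 63.9 to 72.6 CPM (median 66.7, n = 6) in the knockdown, with a log2 fold change of -0.22 ± 0.0601 (SE), adjusted p = 0.0398 (edgeR). With the transcript length offset the CDK2 value shrank to -0.05; its leading transcript, CDK2-201, held 50.1% of the gene's TPM in control and 41.9% in SPP1 knockdown. CDC25A, the phosphatase that activates CDK2, had 33.7, 31.3, 33.2 and 33.3 CPM in control and 24.2 to 31.1 CPM (median 27.0, n = 6) in the knockdown (log2 fold change -0.28 ± 0.0731 (SE), adjusted p = 0.0318, edgeR). Its value grew to -0.50 with that offset. None of the 6 SPP1 libraries reached the lowest control library for either gene.

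Among the other members of this role, CCNE2, cyclin E2, had 17.9, 15.5, 19.7 and 21.0 CPM in control and 11.3 to 16.1 CPM (median 14.9, n = 6) in SPP1 knockdown, and its log2 fold change of -0.37 ± 0.111 (SE) missed the threshold (edgeR adjusted p = 0.0561). E2F1, the best known activating E2F, had 59.4, 53.8, 57.0 and 57.2 CPM in control and 40.9 to 56.2 CPM (median 49.1, n = 6) in the knockdown (-0.21 ± 0.0733 (SE), edgeR adjusted p = 0.106). CDK4, the other partner of D-type cyclins, had 139, 113, 121 and 122 CPM in control and 116 to 154 CPM (median 120.2, n = 6) in the knockdown; the ranges overlapped and the log2 fold change was 0.01. CCND1 varied with the guide, as described below. CCNE1 was at 4.66 to 7.42 CPM (median 5.75, n = 6) and E2F2 at 2.38 to 3.33 CPM (median 3.04, n = 6) in SPP1 knockdown, both overlapping control, and neither passed, nor did CCND3 and E2F3.

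Licensing held 3 called members. ORC6, a subunit of the origin recognition complex, had 44.1, 43.6, 46.1 and 45.3 CPM in control and 30.7 to 40.8 CPM (median 38.3, n = 6) in SPP1 knockdown (log2 fold change -0.26 ± 0.0626 (SE), adjusted p = 0.0238, edgeR). CDC6, the ATPase that brings the MCM helicase to ORC, had 65.3, 65.4, 71.7 and 81.3 CPM in control and 53.1 to 61.7 CPM (median 56.8, n = 6) in the knockdown (log2 fold change -0.31 ± 0.0791 (SE), adjusted p = 0.0272, edgeR). The lower control values of CDC6 are those of guide 1. Its log2 fold change was -0.43 without control guide 1 and -0.19 without control guide 2, called in neither fit. CDT1, which carries MCM to the origin, had 55.6, 56.0, 59.6 and 56.5 CPM in control and 40.2 to 51.5 CPM (median 49.1, n = 6) in the knockdown (log2 fold change -0.25 ± 0.0697 (SE), adjusted p = 0.0399, edgeR). For all 3 genes every SPP1 library lay below every control library. The MCM2 to MCM7 helicase subunits did not pass: MCM2 had 122, 108, 117 and 116 CPM in control and 94.2 to 113 CPM (median 105, n = 6) in the knockdown, and MCM4 had 194, 216, 212 and 209 and 180.3 to 198 CPM (median 192, n = 6), with log2 fold changes of -0.15 and -0.13. GMNN, geminin, which holds CDT1 inactive, had 57.6, 43.2, 45.5 and 48.4 CPM in control and 35.6 to 57.3 CPM (median 41.1, n = 6) in the knockdown, and the ranges overlapped.

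At the fork, CDC45, part of the active helicase, was the only called member. It had 44.9, 41.9, 42.5 and 42.3 CPM in control and 29.5 to 38.6 CPM (median 35.3, n = 6) in SPP1 knockdown, without overlap (log2 fold change -0.31 ± 0.0757 (SE), adjusted p = 0.0252, edgeR). PCNA had 194, 157, 165 and 176 CPM in control and 147 to 183 CPM (median 149, n = 6) in the knockdown, where guide 3 replicate 2 alone reached the control range (-0.16 ± 0.0752 (SE), edgeR adjusted p = 0.234). POLE2 (a subunit of polymerase epsilon), RFC4 (clamp loader) and MCM10 (helicase activation) had log2 fold changes of -0.12, 0.00 and -0.09 and were not called. RFC4 had 31.6, 25.9, 27.2 and 30.2 CPM in control and 26.9 to 33.6 CPM (median 28.2, n = 6) in the knockdown.

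In nucleotide synthesis TYMS, thymidylate synthase, had 178, 159.6, 170.5 and 179 CPM in control and 141 to 169 CPM (median 147, n = 6) in SPP1 knockdown. The groups overlapped through guide 3 replicate 2 alone, and the log2 fold change was -0.20 ± 0.0565 (SE), adjusted p = 0.0482 (edgeR), close to the threshold. Its call was kept in 4 of the 18 fits without 1 library, that of CDK2 in 7 and that of CDT1 in 9. TK1 had 169, 149, 161 and 144 CPM in control and 125 to 172 CPM (median 137, n = 6) in the knockdown and RRM1 182, 178, 182 and 191 and 166 to 184 CPM (median 173, n = 6); neither passed. RRM2 had 207, 154, 234 and 193 CPM in control and 134 to 237 CPM (median 202, n = 6) in the knockdown, and no difference was detectable at this spread (log2 fold change -0.00 ± 0.205 (SE)). UHRF1, which maintains DNA methylation behind the fork, spread as widely, with 63.2, 45.2, 44.1 and 54.2 CPM in control and 35.8 to 61.0 CPM (median 44.8, n = 6) in the knockdown.

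BRIP1, a repair helicase partner of BRCA1, needs its guides read apart. Its control libraries split by guide: guide 1 gave 85.2 and 96.9 CPM and guide 2 gave 62.7 and 64.7 CPM, a log2 difference of -0.52 ± 0.0665 (SE), adjusted p = 0.00155 (edgeR, 1 coefficient per guide). BRIP1 was the only member called between control guides, where 0.784% of all genes were called lower in guide 2. In SPP1 knockdown it was at 47.0 to 71.3 CPM (median 53.8, n = 6), a log2 fold change of -0.43 ± 0.126 (SE) against all control libraries (edgeR adjusted p = 0.0519) and -0.15 without control guide 1. CDKN1A knockdown gave 62.2, 61.9, 62.7 and 62.9 CPM, which is the level of control guide 2 and -0.03 on the log2 scale without control guide 1.

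**Figure D2:**
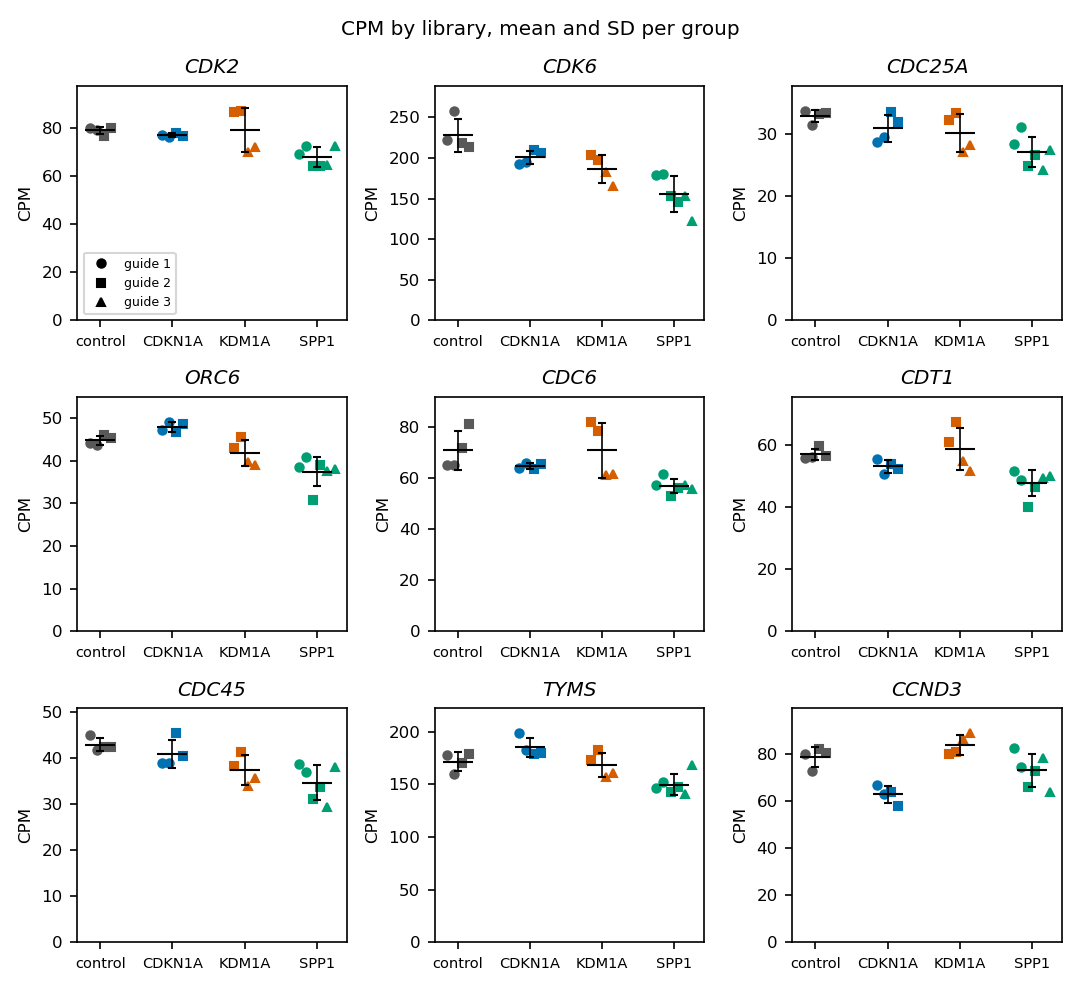
CPM (y axis, from 0) of the 8 members called lower in SPP1 knockdown and of CCND3, called lower in CDKN1A knockdown; each point is 1 library, its shape the guide, and the bar and whiskers are the group mean and SD. CDK6 is at 213 CPM or more in every control library and at 180.2 CPM or less in every SPP1 library, and the KDM1A points of CDK2, CDC6 and CDT1 split by guide.

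CDKN1A knockdown lowered 1 member, CCND3 (cyclin D3), and raised none. CCND3 was at 80.0, 72.6, 82.1 and 80.1 CPM in control and 66.6, 62.9, 63.6 and 58.0 CPM in the knockdown, so the groups did not overlap; the log2 fold change was -0.33 ± 0.0715 (SE), adjusted p = 0.0243 (edgeR). Over all genes 0.917% were called lower and 1.09% higher, so 1 of 40 members is near the background. The call was lost without control guide 1 or 2 and without CDKN1A guide 1 or 2. Leaving out 1 library, the count was 0 without control guide 1 replicate 1 or either library of control guide 2 or CDKN1A guide 1 replicate 2 or either library of CDKN1A guide 2. The call was also lost with guides summed and with the transcript length offset (edgeR adjusted p = 0.113). CCNE1 had the largest change of a member, from 6.43, 5.50, 7.14 and 7.38 CPM in control to 4.55, 4.86, 4.37 and 4.56 CPM, and did not overlap either, but its log2 fold change of -0.53 ± 0.158 (SE) missed the threshold (edgeR adjusted p = 0.0858). RRM1, the large subunit of ribonucleotide reductase, had 182, 178, 182 and 191 CPM in control and 211, 201, 193 and 203 CPM in the knockdown (0.14 ± 0.0473 (SE), edgeR adjusted p = 0.128). TYMS and ORC6, at 199, 183, 179 and 180.2 CPM and 47.2, 49.0, 46.7 and 48.5 CPM, lay just above every control library, without passing (edgeR adjusted p = 0.396 and 0.523). In all 4 members lay below every control library and 4 above, or 10% each way, beside 6.65% and 6.46% of all genes. The median over members was -0.01, with 19 above and 21 below 0. CDK6 at 193, 196, 209 and 206 CPM lay below every control library (-0.18 ± 0.0965 (SE), edgeR adjusted p = 0.366), and E2F1, PCNA and MCM2 had log2 fold changes of -0.02, 0.10 and -0.03.

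Read guide by guide, CDKN1A guide 1 lowered BRIP1 and guide 2 lowered CCND3, CCNE1 and BRIP1 (edgeR, 1 coefficient per guide, with 2.34% and 3.32% of all genes lower). CDKN1A mRNA itself fell more with guide 1. Its log2 fold change against control was -1.11 with guide 1 alone (guide 2 left out) and -0.50 with guide 2 alone (edgeR). No member was called between the CDKN1A guides, where 1.28% of all genes were called in either direction. Without adjustment 2 of 40 members had a p under 0.05 there (edgeR), and the share of all genes at that threshold is not given. DESeq2 also called none between these guides. For guide 1 the count was 0 without either library of CDKN1A guide 1, 2 without control guide 1 replicate 2 or SPP1 guide 2 replicate 1, 4 without either library of SPP1 guide 3, and for guide 2 it was 0 without CDKN1A guide 2 replicate 2, 1 without CDKN1A guide 2 replicate 1. Without control guide 1 the BRIP1 value is the one near 0 given above.

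KDM1A knockdown called 0 of 40 members against control in edgeR's fit with 1 coefficient per group, while 9.05% of all genes were called in either direction. Without adjustment 8 members had a p under 0.05 (edgeR), which cannot be set beside the 9.05%, a share of adjusted calls. DESeq2 called 1 member. The count of called members in edgeR was 1 without control guide 1 replicate 2 or either library of control guide 2 or KDM1A guide 2 replicate 2 or either library of KDM1A guide 3 or either library of SPP1 guide 3. The median was -0.00, with 19 above and 21 below 0. The nearest was E2F2, at 2.75, 3.05, 4.45 and 4.33 CPM in control and 6.50, 7.72, 4.37 and 4.03 CPM in the knockdown (log2 fold change 0.63 ± 0.202 (SE), edgeR adjusted p = 0.0563). Its control libraries split by guide, with control guide 2 (4.45 and 4.33 CPM) the higher, and KDM1A guide 3 stood near that level. CCNE1 and CCNE2 were at 5.46, 6.42, 4.0 and 4.08 CPM and 15.9, 16.0, 13.0 and 12.8 CPM. CDK6 was at 204, 197, 182 and 165 CPM, below every control library (-0.29 ± 0.0966 (SE), edgeR adjusted p = 0.0713). In each of these 4 sets of KDM1A values the first pair is guide 2 and the second pair guide 3, and the second pair is the lower. Against the control ranges, 2 members lay wholly below (CDK6, CDC45) and 1 wholly above (POLE2, at 13.4, 13.1, 12 and 12.4 CPM beside 11.3, 10.2, 11 and 11.5 CPM in control), and 7.49% and 8.19% of all genes did so.

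**Figure D3:**
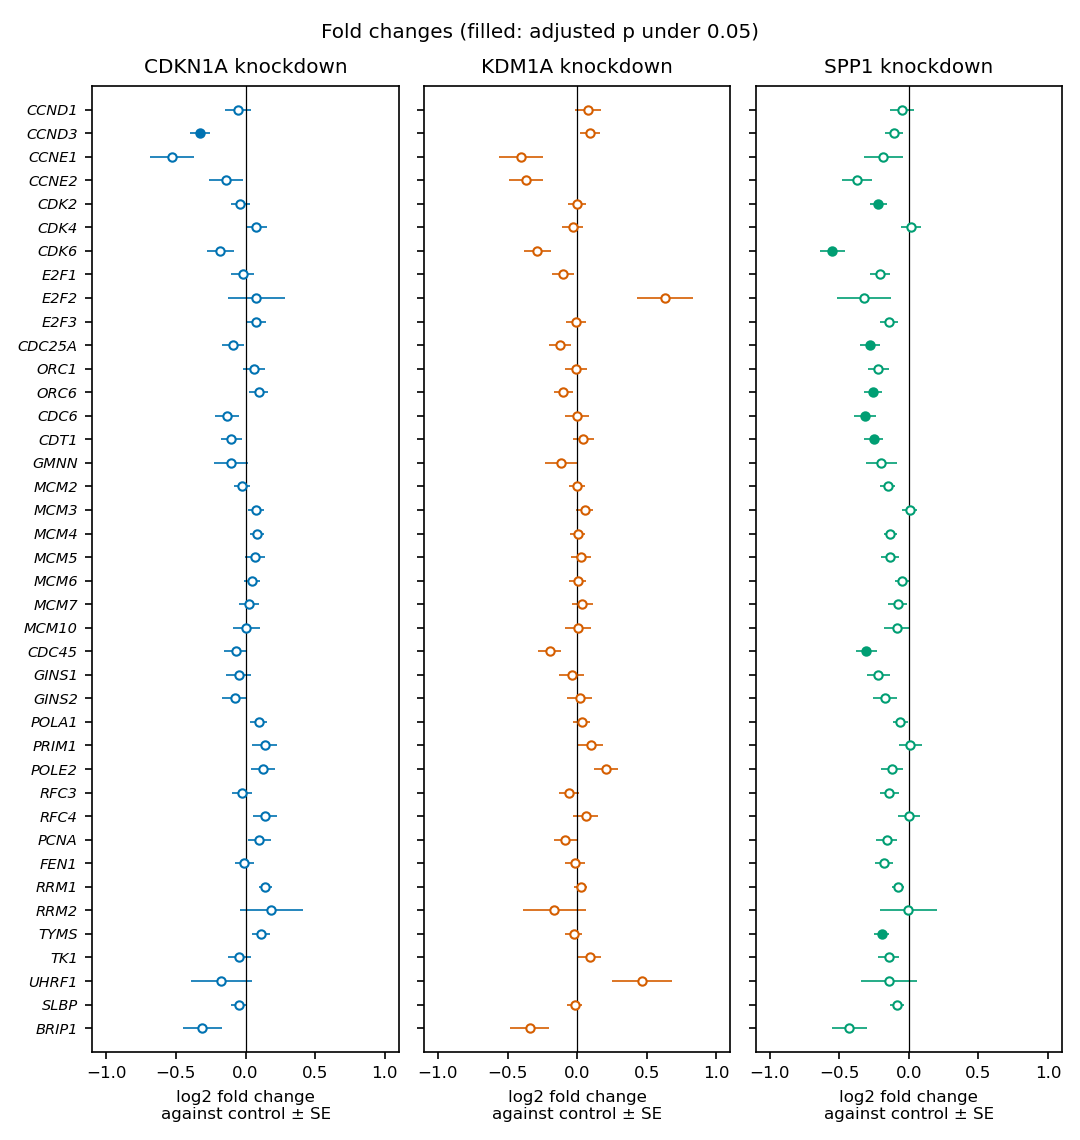
Log2 fold change ± SE against control for the 40 members in CDKN1A, KDM1A and SPP1 knockdown; filled points have an adjusted p under 0.05 in edgeR. The panels hold 1, 0 and 8 filled points, all to the left of 0.

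The KDM1A guides went apart, and they lowered KDM1A mRNA to different extents. Its log2 fold change against control was -0.67 with guide 2 alone (guide 3 left out) and -1.20 with guide 3 alone (edgeR). The part of this in the members' results was not tested. Against all control libraries, guide 2 raised 3 members (E2F2, CDC6 and MCM10) and guide 3 lowered 9 (CCNE1, CCNE2, CDK6, E2F1, CDC25A, CDC6, MCM10, CDC45 and BRIP1), where 8.41% of all genes were called higher with guide 2 and 5.16% lower with guide 3 (edgeR, 1 coefficient per guide). Of 40 members, 32 were above 0 with guide 2 and 6 with guide 3. The members' medians were 0.08 and -0.11, beside -0.0099 and -0.00886 over all genes. The direct comparison of guide 3 with guide 2 called 7 members lower and none higher: CDK2, E2F2, CDC6, CDT1, MCM6, MCM10 and BRIP1, against 4.04% of all genes. CDC6 was at 82.0 and 78.6 CPM with guide 2 and 61.3 and 61.8 CPM with guide 3 (log2 difference -0.38 ± 0.0648 (SE), adjusted p = 0.00221, edgeR). MCM10 was at 42.1 and 36.8 CPM with guide 2 and 27.7 and 28.8 CPM with guide 3 (-0.48 ± 0.0797 (SE), adjusted p = 0.00204, edgeR). E2F2 was at 6.50 and 7.72 CPM with guide 2, above every other library, and at 4.37 and 4.03 CPM with guide 3 (-0.77 ± 0.162 (SE), adjusted p = 0.0107, edgeR). So CDC6 and MCM10 were called higher than control with 1 guide and lower with the other. For CDC6 the highest control library, at 81.3 CPM, lay between the 2 libraries of KDM1A guide 2. MCM6, a helicase subunit, differed by -0.21 ± 0.0542 (SE) between the guides (edgeR adjusted p = 0.0331). CDK2 stood at 86.5 and 86.8 CPM with guide 2 and 70.0 and 71.9 CPM with guide 3, on either side of its control range. CDT1 stood at 60.8 and 67.3 CPM with guide 2 and 54.8 and 51.7 CPM with guide 3. BRIP1 in both KDM1A guides together was -0.06 on the log2 scale without control guide 1. Leaving out 1 library, the count between guides was 3 without either library of KDM1A guide 2 or either library of KDM1A guide 3, 14 without either library of SPP1 guide 3, that of guide 2 against control was 1 without control guide 2 replicate 1 or KDM1A guide 2 replicate 1, 5 without SPP1 guide 3 replicate 2, 7 without SPP1 guide 3 replicate 1, and that of guide 3 was 1 without KDM1A guide 3 replicate 2, 2 without KDM1A guide 3 replicate 1, 4 without control guide 2 replicate 2, 5 without control guide 1 replicate 1 or either library of CDKN1A guide 1.

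The SPP1 guides went the same way for most members. Guide 1 lowered 4 (CDK6, CDC6, MCM2 and MCM4), guide 2 lowered 12 and guide 3 lowered 10, with 2.59%, 5.23% and 5.99% of all genes called lower (edgeR, 1 coefficient per guide). These guides share the control libraries. CDK6 and CDC6 were called with all 3 guides, and BRIP1, CDC25A, CDC45, CDK2 and ORC6 with guides 2 and 3. In all, 31 of 40 members were below 0 with every guide. The share of all genes that were is not given, and shared control libraries alone make signs agree in part. The members' medians were -0.17, -0.19 and -0.12, beside -0.000594, -0.0049 and 0.0121 over all genes. Guide 2 also lowered E2F1, CDT1, TYMS and, of the GINS complex, GINS1 (-0.42 ± 0.0768 (SE), adjusted p = 0.00289) and GINS2 (-0.30 ± 0.0901 (SE), adjusted p = 0.0447, edgeR). Guide 3 also lowered CCND1, E2F3 and CCNE2, the last by a log2 fold change of -0.54 ± 0.126 (SE), adjusted p = 0.0129 (edgeR). Of these, CCND1 alone was called between SPP1 guides. Each guide has 2 libraries, so where 1 of a guide's own libraries is left out of such a fit, here and in the counts for the other guides, that guide is a lone library assumed to vary like the others. Leaving out 1 library, the count of guide 1 was 0 without either library of SPP1 guide 1, 1 without control guide 2 replicate 2, 2 without control guide 2 replicate 1, 8 without SPP1 guide 3 replicate 2, 9 without SPP1 guide 3 replicate 1, and that of guide 2 was 5 without SPP1 guide 2 replicate 1.

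CCND1 was the cyclin that differed between SPP1 guides. It was at 3574 and 3402 CPM with guide 1, 2643 and 2797 CPM with guide 2 and 2872 and 2427 CPM with guide 3, while control libraries held 2782, 2874, 3289.8 and 3270.4 CPM. The lower control values are those of control guide 1. SPP1 guide 2 replicate 2 (2797 CPM) and guide 3 replicate 1 (2872 CPM) lay within the control range. SPP1 guide 2 lay below SPP1 guide 1 by a log2 difference of -0.36 ± 0.0624 (SE), adjusted p = 0.00931 and SPP1 guide 3 by -0.40 ± 0.0624 (SE), adjusted p = 0.00336 (edgeR). Of all genes, 1.13% and 1.69% were called lower in these 2 comparisons. BRIP1 was lower in both as well, and CDK6 lower with guide 3 than guide 1 (-0.38 ± 0.0900 (SE), adjusted p = 0.0364, edgeR). No member was called between guides 3 and 2 in edgeR, where 0.214% of all genes were; that number was 9 without SPP1 guide 3 replicate 1. Between guides 2 and 1 it was 0 without SPP1 guide 1 replicate 1 or SPP1 guide 2 replicate 1, 1 without SPP1 guide 1 replicate 2, 4 without either library of SPP1 guide 3, and between guides 3 and 1 it was 1 without SPP1 guide 1 replicate 1, 12 without SPP1 guide 3 replicate 1. SPP1 mRNA itself spanned 21.7 to 63.0 CPM over these libraries. Its log2 fold change against control was -0.45 without SPP1 guide 1, -0.92 without guide 2 and -0.76 without guide 3 (edgeR). Guide 1 thus lowered SPP1 most and guide 2 least, while they lowered 4 and 12 members, and guide 3 lowered 10. These counts depend on the threshold and shift when single libraries are left out. The members' median log2 fold changes were -0.165 with guide 1, -0.189 with guide 2 and -0.123 with guide 3. The libraries of guide 3 differed in SPP1 mRNA, whose log2 fold change was -0.89 without replicate 1 and -0.58 without replicate 2 (edgeR). Whether the fall of the members follows that of SPP1 was not tested.

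**Figure D4:**
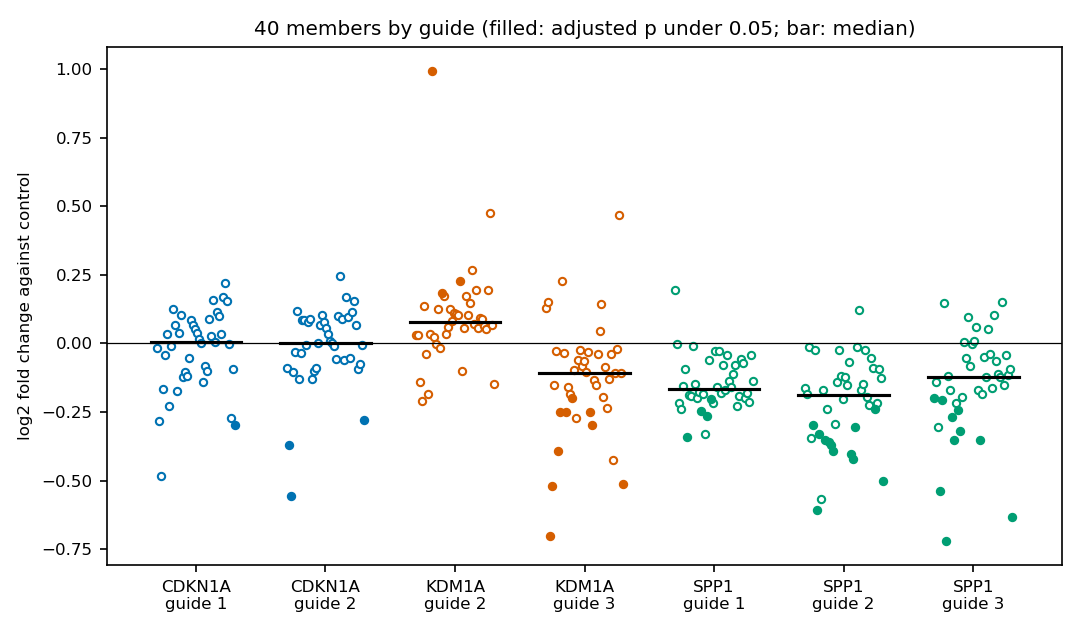
Log2 fold change of each of the 40 members against all control libraries (y axis) for the 7 knockdown guides (x axis); points are filled where the adjusted p is under 0.05 in edgeR, and the bar is the median. The medians of the KDM1A guides lie on opposite sides of 0 (0.08 and -0.11), and those of the 3 SPP1 guides all lie below it.

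Set against each other, the knockdowns differed in 12, 6 and 1 of 40 members. CDKN1A against SPP1 knockdown had 11 members higher and 1 lower, beside 6.37% and 5.66% of all genes (edgeR). The higher members included TYMS (log2 difference 0.31 ± 0.0563 (SE), adjusted p = 0.00167), ORC6 (0.35 ± 0.0622 (SE), adjusted p = 0.00129), RRM1 (0.22 ± 0.0430 (SE), adjusted p = 0.00289) and MCM4 (0.22 ± 0.0466 (SE), adjusted p = 0.00522), and also CDK6, E2F3, ORC1, MCM5, CDC45, POLE2 and PCNA; CCND3 was the lower one (edgeR). ORC6 had 47.2, 49.0, 46.7 and 48.5 CPM in CDKN1A knockdown, above every SPP1 library. PCNA had 185, 186, 184 and 186 CPM there, also above every SPP1 library. Leaving out 1 library, the count of 12 was 5 without CDKN1A guide 2 replicate 1, 6 without CDKN1A guide 1 replicate 2, 7 without CDKN1A guide 1 replicate 1 or CDKN1A guide 2 replicate 2 or SPP1 guide 2 replicate 2. KDM1A against SPP1 knockdown had 6 members higher, CDK2, E2F2, CDC6, CDT1, POLE2 and UHRF1, beside 6.90% of all genes. That count was 0 without KDM1A guide 2 and 20 without KDM1A guide 3, and with 1 library left out 2 without KDM1A guide 2 replicate 2, 3 without KDM1A guide 2 replicate 1, 11 without KDM1A guide 3 replicate 1, 14 without SPP1 guide 3 replicate 2. UHRF1 in KDM1A knockdown was at 68.4, 74.8, 45.1 and 96.9 CPM, and 3 of these 4 lie above every SPP1 library. CDKN1A against KDM1A knockdown had CCND3 alone, lower in CDKN1A knockdown (log2 difference -0.42 ± 0.0713 (SE), adjusted p = 5.07e-04, edgeR), beside 8.06% of all genes; that count was 2 without KDM1A guide 2 replicate 2 or KDM1A guide 3 replicate 2 or SPP1 guide 2 replicate 2 or SPP1 guide 3 replicate 2, 3 without KDM1A guide 3 replicate 1 or SPP1 guide 2 replicate 1. A test of any difference between the 4 groups called 15 of 40 members, or 37.5%, beside 23.7% of all genes.

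Other genes of the pathway, from lists that hold no member, were read in the same fit. The shares of all genes to read the SPP1 counts against are 3.06% lower and 2.40% higher, so that 1 gene of a list of about 30 is near the background. In SPP1 knockdown, 5 of 28 genes of the RB-E2F axis were called lower and none higher: RBL1 (a retinoblastoma relative), MYBL2, E2F7, FBXO5 and CDK1, with MYBL2 at -0.42 ± 0.10 (SE), adjusted p = 0.0197 (log2 fold change, edgeR). Of 23 further licensing and firing genes, DTL, which marks CDT1 for destruction in S phase, and RECQL4 were lower. Of 34 further replisome genes, 7 were lower (POLD1, POLE, CHTF18, ASF1B, CLSPN, POLD3 and ATAD5) and 1 higher, TOP1 at 0.35 ± 0.0611 (SE), adjusted p = 0.00438 (edgeR). POLD1, the catalytic subunit of polymerase delta, had a log2 fold change of -0.35 ± 0.0618 (SE), adjusted p = 0.00472 (edgeR). Of 29 genes of nucleotide supply, CTPS2 was higher and CTPS1 lower; both encode CTP synthases. Of 29 genes of S-phase chromatin and repair, 6 were lower (BRCA2, EXO1, BARD1, FANCI, FANCD2 and USP1). The list medians were -0.05, -0.06, -0.08, -0.00 and -0.14, in that order. Of 30 G2/M genes, 1 was lower, CDK1, which is also in the RB-E2F list, and their median was -0.08.

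In CDKN1A knockdown, where 1.09% of all genes were called higher and 0.917% lower, the same lists had RBL2, TFDP2 and CDC25B of the RB-E2F axis higher (3 of 28), ORC3 higher (1 of 23), POLD4 lower (1 of 34), and RRM2B and CTPS2 higher with CTPS1 lower (of 29). RRM2B, the p53-inducible subunit of ribonucleotide reductase, changed by 0.53 ± 0.0869 (SE), adjusted p = 0.00409 (log2 fold change, edgeR). None of the 29 chromatin and repair genes was called, and 3 of 30 G2/M genes, CENPF, FOXM1 and CCNB2, were higher. The list medians there were 0.03, 0.04, 0.06, -0.01 and 0.06, in the order used for SPP1 knockdown. The G2/M median was 0.13, beside -0.00365 over all genes. In KDM1A knockdown 9.05% of all genes were called in either direction, and the counts of these lists are near or below that share. CDC25B and E2F5 were higher and E2F7 lower (of 28), none of 23 licensing genes passed, POLD4 was lower (of 34), and SAMHD1 and CTPS2 were higher (of 29). SAMHD1, which breaks down deoxynucleotides, had the largest change of these, 0.76 ± 0.0773 (SE), adjusted p = 3.93e-06 (edgeR). No chromatin and repair or G2/M gene passed there.

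Library by library, the members moved partly together. The median over 40 members of the log2 difference from the control mean was -0.06 to 0.02 in control, -0.03 to 0.03 in CDKN1A, -0.15 to 0.09 in KDM1A and -0.24 to -0.08 in SPP1 knockdown. All 6 SPP1 libraries were below the 4 control libraries. In KDM1A knockdown the guide 2 libraries were at 0.07 and 0.09 and the guide 3 libraries at -0.15 and -0.09. The same median over 30 G2/M genes ran with it over the 18 libraries (Pearson r = 0.67, Spearman rho = 0.69; n = 18, libraries of a guide share their source, a description). CDKN1A libraries had G2/M medians of 0.08 to 0.15 at G1/S medians near 0, and 1 control library lay at the lower end of that range. Depth and the mitochondrial share ran with the members' median at r = 0.28 and 0.03. In SPP1 knockdown the summed fibroblast markers were 15121 to 16271 CPM, beside 15563 to 16183 CPM in control, and the endothelial list 56.2 to 75.5 beside 80.2 to 93.3 CPM, nearly all of it TEK. COL3A1, a fibroblast collagen, rose 2.14-fold in SPP1 knockdown (edgeR adjusted p = 0.0218). The 3 keratinocyte markers tested were all above 0 there with none called, and their list summed to 56.9 to 76.1 CPM, beside 58.7 to 68.1 in control. In CDKN1A knockdown 7 of 9 fibroblast markers were below 0 with none called, with sums of 13962 to 15751 CPM. In KDM1A knockdown COL3A1, PDGFRB and the keratinocyte marker KRT15 rose, and the fibroblast sums were 15017 to 16988 CPM. The part of these in the members' results was not tested.

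**Figure D5:**
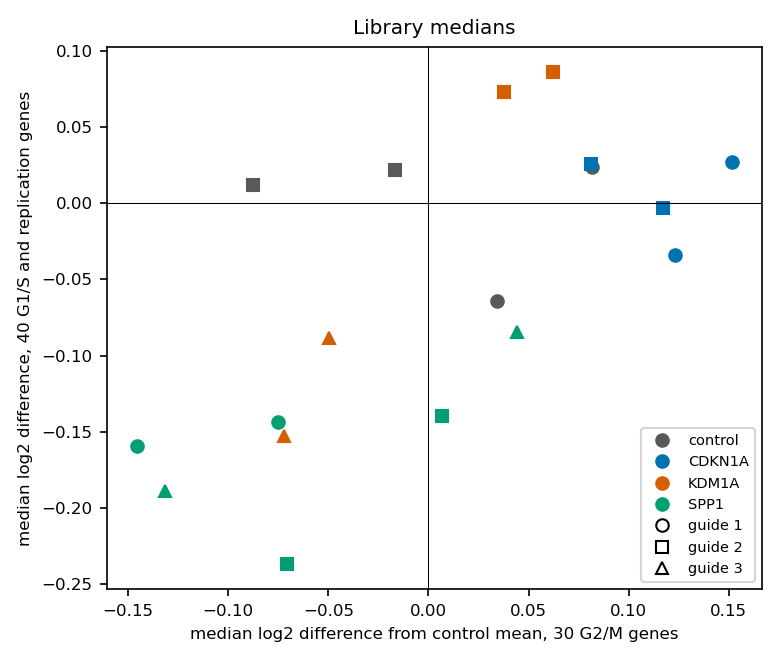
Each point is 1 library: the x axis is the median log2 difference from the control mean over 30 G2/M genes and the y axis the same over the 40 members; colour is the group and shape the guide. The 6 SPP1 points lie below 0 on the y axis (-0.24 to -0.08), and the 4 CDKN1A points lie to the right near 0 on the y axis.

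The members varied among themselves in how. Per degree of freedom, the median ratio of the variance between groups to that between guides was 2.50 for members and 1.79 for all genes, and that between guides to that between libraries of a guide 2.36 and 1.73. BRIP1 had the largest of the second ratio, 35.5, followed by E2F2 at 15.7. RRM2 and UHRF1 had the smallest, 0.426 and 0.0918: replicates of 1 guide differed more than guides did. UHRF1 in KDM1A guide 3 was at 45.1 and 96.9 CPM. Over the 18 libraries the 780 member pairs had a median r of 0.46, and the closest pair was CDC25A with CDC45 (r = 0.92). CCND1, CCND3 and CCNE1 stood outside, with median r of 0.02, -0.08 and -0.00 with the other members, while TYMS had 0.65. The libraries share groups and guides, so these values describe them only. The leading transcript of MCM7 was MCM7-210, annotated as a retained intron, with 68.4% of its TPM, so the MCM7 level is mostly that of a model with no coding sequence.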

How the data were processed

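The authors deposited 1 table per library with estimated counts and TPM for 188753 transcripts; kallisto and hg38/GRCh38 are named per the submitters' processing notes, without version or settings. Libraries were poly(A)-selected, per the labels' protocols. Transcripts were assigned to genes with GENCODE 29 (90.0% matched; unmatched ones held 2.49 to 2.62% of counts). Estimated counts were summed per gene and rounded, kept by filterByExpr (count minimum 10), scaled by TMM and fitted with edgeR 4.0.16 (R 4.3.3) over all 18 libraries: 1 coefficient per group, and in a separate fit 1 per guide. A gene was called at a Benjamini-Hochberg adjusted p under 0.05 over 13527 genes. TPM, deposited by the authors, served for levels between genes. DESeq2 1.42.0 was an alternative. The fit with 1 coefficient per group was tested on simulated data in which libraries varied independently and guides of a group did not differ. Fitted sizes and the number of false calls met the limits set. This does not test false calls where guides differ, as they did here for many members. The recovery of changed genes fell just short of the limit first set; the missed genes mostly had few counts or a large spread, and that limit was then dropped.

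The members and lists were chosen with earlier results of these data known. Values are given per library for members called against control, for the largest change and smallest p of each role, for up to 3 members called between guides of a target, and for well-known members. The statistic of the permutation test was changed to the absolute mean difference after a first version with a doubled tail had been seen; both p-values are printed for SPP1, and those of CDKN1A and KDM1A were the same in both.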

Additional observations from a re-analysis of the deposited data

Results flagged for a closer look

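Of 112 groups of 4 or 6 libraries checked over the 28 members with values per library, 5 held a library far from the others by Dixon's criterion; chance gives about 1 in 20. All 5 lie in SPP1 knockdown. CCND2 was at 0.564 CPM in guide 1 replicate 1, with the nearest library at 0.170 and the farthest at 0 CPM. CDK4 was at 154 CPM in guide 3 replicate 2, with the nearest library at 124 and the farthest at 116 CPM. ORC6 was at 30.7 CPM in guide 2 replicate 1, with the nearest library at 37.6 and the farthest at 40.8 CPM. PCNA was at 183 CPM in guide 3 replicate 2, with the nearest library at 154 and the farthest at 147 CPM. RFC4 was at 33.6 CPM in guide 3 replicate 2, with the nearest library at 28.3 and the farthest at 26.9 CPM. CDK4, PCNA and RFC4 had their high value in the same library, guide 3 replicate 2. CCND2 rests on too few counts to read.

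The KDM1A guides differed, by a test of the difference itself (edgeR, 1 coefficient per guide), in 7 members. Guide 3 against guide 2 gave log2 differences of -0.29 for CDK2 (adjusted p = 0.00750), -0.77 for E2F2 (adjusted p = 0.0107), -0.38 for CDC6 (adjusted p = 0.00221), -0.27 for CDT1 (adjusted p = 0.0483), -0.21 for MCM6 (adjusted p = 0.0331), -0.48 for MCM10 (adjusted p = 0.00204), -0.37 for BRIP1 (adjusted p = 0.00440).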

How the results depend on the processing

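Counts of called members moved by over 1.5 times as follows. For CDKN1A knockdown against control (1 as reported) the counts were 0 with transcript length offset or replicates summed per guide and leaving out control guides 1 or 2 or CDKN1A guides 1 or 2, 2 with DESeq2 or the 2 groups fitted alone and leaving out KDM1A guides 2 or 3, 4 with 1 coefficient per guide. For KDM1A knockdown against control (0 as reported) the counts were 1 with DESeq2 or transcript length offset or replicates summed per guide or the 2 groups fitted alone and leaving out KDM1A guide 3 or SPP1 guide 1, 2 leaving out control guide 2 or KDM1A guide 2 or SPP1 guide 3, 5 with 1 coefficient per guide. For SPP1 knockdown against control (8 as reported) the counts were 0 with replicates summed per guide and leaving out control guide 1, 1 leaving out SPP1 guide 2, 2 leaving out control guide 2, 3 with transcript length offset or the 2 groups fitted alone, 4 leaving out SPP1 guide 3, 5 leaving out CDKN1A guides 1 or 2, 16 with 1 coefficient per guide. For CDKN1A knockdown against KDM1A knockdown (1 as reported) the counts were 2 with RLE size factors or no filter on low counts or replicate block or replicates summed per guide and leaving out SPP1 guide 3, 3 with the 2 groups fitted alone and leaving out SPP1 guide 2, 4 leaving out KDM1A guides 2 or 3, 5 with 1 coefficient per guide. For CDKN1A knockdown against SPP1 knockdown (12 as reported) the counts were 0 with replicates summed per guide, 3 leaving out CDKN1A guide 2, 5 leaving out CDKN1A guide 1, 6 with transcript length offset, 7 with no filter on low counts and leaving out SPP1 guide 2, 24 with 1 coefficient per guide. For KDM1A knockdown against SPP1 knockdown (6 as reported) the counts were 0 leaving out KDM1A guide 2, 1 with replicates summed per guide, 3 leaving out SPP1 guide 2, 11 with DESeq2 and leaving out SPP1 guide 1, 12 leaving out SPP1 guide 3, 16 with 1 coefficient per guide, 20 leaving out KDM1A guide 3. For any difference between the 4 groups (15 as reported) the counts were 1 with replicates summed per guide, 8 with transcript length offset and leaving out SPP1 guide 2. For control guide 2 against control guide 1 (1 as reported) the counts were 2 with DESeq2, 3 with no filter on low counts. For KDM1A guide 3 against KDM1A guide 2 (7 as reported) the counts were 4 with DESeq2, 11 with no filter on low counts. For SPP1 guide 3 against SPP1 guide 1 (3 as reported) the counts were 5 with no filter on low counts. For CDKN1A guide 1 against control (1 as reported) the counts were 2 with RLE size factors or DESeq2 or replicate block, 5 with no filter on low counts. For KDM1A guide 2 against control (3 as reported) the counts were 1 with DESeq2. For KDM1A guide 3 against control (9 as reported) the counts were 3 with DESeq2. For SPP1 guide 1 against control (4 as reported) the counts were 7 with no filter on low counts. Leaving out 1 library in turn gave, from lowest to highest, 0 to 1 for CDKN1A knockdown against control, 0 to 1 for KDM1A knockdown against control, 1 to 11 for SPP1 knockdown against control, 1 to 3 for CDKN1A knockdown against KDM1A knockdown, 5 to 16 for CDKN1A knockdown against SPP1 knockdown, 2 to 14 for KDM1A knockdown against SPP1 knockdown, 11 to 22 for any difference between the 4 groups, 1 to 2 for control guide 2 against control guide 1, 0 to 0 for CDKN1A guide 2 against CDKN1A guide 1, 3 to 14 for KDM1A guide 3 against KDM1A guide 2, 0 to 4 for SPP1 guide 2 against SPP1 guide 1, 1 to 12 for SPP1 guide 3 against SPP1 guide 1, 0 to 9 for SPP1 guide 3 against SPP1 guide 2, 0 to 4 for CDKN1A guide 1 against control, 0 to 4 for CDKN1A guide 2 against control, 1 to 7 for KDM1A guide 2 against control, 1 to 13 for KDM1A guide 3 against control, 0 to 9 for SPP1 guide 1 against control, 5 to 16 for SPP1 guide 2 against control, 7 to 10 for SPP1 guide 3 against control. The targeted mRNAs kept their direction: CDKN1A (-0.78 on the log2 scale) gave -0.78 (not called) with replicates summed per guide, -0.66 (not called) without control guide 1; SPP1 (-0.70 on the log2 scale) gave -0.70 (called) with no filter on low counts, -0.75 (called) with 1 coefficient per guide, -0.76 (called) without SPP1 guide 3, and without 1 library -0.88 to -0.67 for CDKN1A, -1.01 to -0.82 for KDM1A, -0.89 to -0.58 for SPP1. Replicate numbers did not pair libraries across guides: deviations of same-numbered libraries correlated at r of -0.117 to 0.0733 over 36 guide pairs. With a replicate block, 6 of the 8 SPP1 calls were kept; CDT1 and TYMS missed the threshold (edgeR adjusted p = 0.0523 and 0.0580). Over 81 values of single members and 2835 refits, 2659 stayed on their side of the threshold, 121 lost a call, 55 gained 1 and 0 called values changed sign. Most of these values were not called as reported and so could not lose a call. The 121 come from the 8 SPP1 calls and CCND3 in CDKN1A knockdown, with 35 refits each. They range from 2 for CDK6 to 24 for TYMS. Fewer libraries or guides leave fewer degrees of freedom, and with replicates summed per guide the spread is that between guides instead of libraries. Beyond that the cause was not tested. The widest standard errors against control were those of RRM2 and UHRF1, then of E2F2 and CCNE1, which have few counts.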
